A study of Arabidopsis thaliana with 18 samples.

Results

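A first 1-hour exposure to excess light (EL) was examined in naïve Arabidopsis leaves by comparing the 3 naïve + triggered libraries (N+T-r1 to N+T-r3) with the 3 naïve libraries (N-r1 to N-r3), which are 6 of the 18 samples of the series and 6 of its 12 mRNA-seq libraries. All plants were wild-type Col-0, 3 weeks old, raised on soil under a 12-hour photoperiod at 100 to 150 µmol photons m-2 s-1 and 20 °C. N plants stayed in this light, whereas N+T plants received 1000 µmol photons m-2 s-1 of warm light from metal halide and sodium lamps for 1 hour. True leaves 4 to 9 were sampled from 3 independent plants per group, so each value averages leaves of several ages and all their cell types, and the clock time of harvest per library is not given in the sources used here. Fewer cells of a type and less RNA per cell cannot be told apart in such leaves. The comparison covers the loci of the 5 nuclear chromosomes. The primed groups P and P+T, which had gone through a week of recurring EL before sampling without and with the same trigger, entered the same model, and are used below only for the response in plants that share no library with N and N+T.

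Light beyond what photosynthesis can use overloads the electron transport chain, so that singlet oxygen, superoxide and hydrogen peroxide form in the chloroplast. Leaves answer within minutes to hours with photoprotective pigments and early light-induced proteins, with peroxidases and glutathione enzymes, and with heat shock factors that switch on chaperones to refold or hold damaged proteins. In the endoplasmic reticulum, unfolded proteins release the membrane-bound factors bZIP28 and bZIP60, which raise BiP, calreticulin and protein disulfide isomerases. Genes of the photosynthetic apparatus and of growth are often turned down at the same time.

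The libraries held 14956280, 28022192 and 27542927 counts in N and 7647236, 27276518 and 3665503 counts in N+T (replicates 1 to 3), of which organelle and rRNA loci, removed before analysis, took between 0.0521% and 2.56%. N-r3 and N+T-r3 were left out of the published analysis as possible outliers in a multidimensional scaling plot. The mean correlation of log2 CPM across loci, which are not independent replicates, was 0.979 between N-r1 and -r2 and 0.941 between N+T-r1 and -r2, while N-r3 was at 0.804 with the other N libraries and N+T-r3 was at 0.817 with the other N+T libraries and at 0.904 with N-r1 and -r2. In all 6 libraries mesophyll markers were abundant, and the meristem, root, flower and seed markers summed to 3.59 CPM or less. Epidermis markers summed to 262, 262 and 58.1 CPM in N and 133, 122 and 263 CPM in N+T, and senescence markers to 17.4, 15.2 and 149.7 CPM in N and 829, 360.4 and 10.7 CPM in N+T, so that N-r3 was low in the former and high in the latter whereas N+T-r3 was the opposite. Most of the senescence sum was SAG13, at 110 CPM in N-r3 and at 721 and 329 CPM in N+T-r1 and -r2. ORE1 and NYE1 were likewise higher in N-r3 than in N+T-r3, at lower levels, and SAG12 was at 0.549 CPM or less in all 6 libraries. The part of these shifts in the results below was not tested. Main values come from replicates 1 and 2, and what the replicate 3 libraries show is given beside each family as the difference of log2 CPM between N+T-r3 and N-r3, 1 library against 1 and therefore without a test.

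Among 17986 loci tested, 1392 (7.74%) rose and 1336 (7.43%) fell in N+T against N at a false discovery rate of 0.05 (edgeR quasi-likelihood test, Benjamini-Hochberg adjustment), together 15.2%. The change exceeded 2-fold for 1004 of the loci that rose and 1013 of those that fell, and the median log2 fold change was 1.58 and -1.36, against -0.0042 over all loci tested. In replicate 3, 710 of the 1392 up-regulated loci (51.0%) were higher in N+T-r3 than in N-r3 and 707 of the 1336 down-regulated loci (52.9%) were lower, which is close to the 49.9% of all tested loci that were higher and the 50.1% that were lower. All 3 N+T libraries lay above all 3 N libraries at 622 up-regulated loci (44.7%) and below them at 637 down-regulated loci (47.7%), where 10.4% and 12.1% of all loci tested did so. With both replicate 3 libraries in the fit, 355 loci rose (1.97%) and 362 fell (2.01%), of which 328 and 327 were among the loci above. The calls rest on few libraries: 29 and 76 loci were called up and down without N-r1, 0 and 1 without N-r2, 210 and 156 without N+T-r1, and 1620 and 1026 without N+T-r2. The sign of the fold change was kept at all 78 named loci that were called, whichever of these 4 libraries was left out. The loci were called from these same libraries, so the kept sign is no independent support. In the replicate 3 libraries, which did not enter the calls, 30 of the 78 had the other sign. The response differed from that of primed plants by the interaction term at 1 locus (0.00556%), the glutaredoxin AT4G15690, named for this result.

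**Figure D1:**
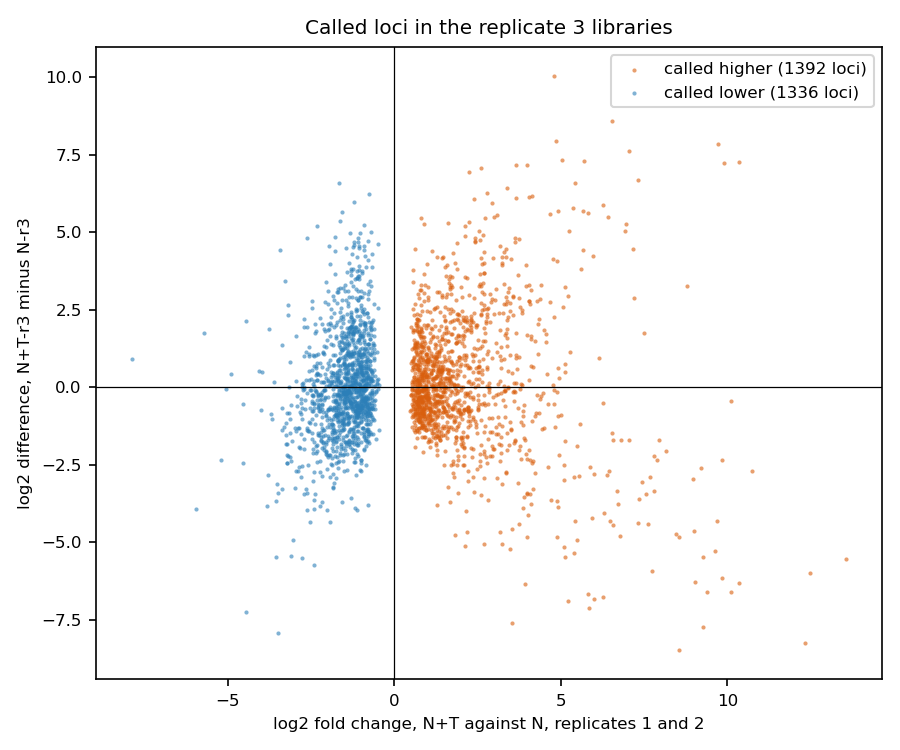
Each point is a locus called in N+T against N, with its log2 fold change from replicates 1 and 2 on the horizontal axis and the log2 difference between N+T-r3 and N-r3 on the vertical axis. The 1392 loci called higher and the 1336 called lower are each spread on both sides of 0 on the vertical axis, with 710 and 707 of them on the side of their own call.

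Primed plants, which share no library with N and N+T, separated the up-regulated loci along the same line. Of the 710 that were also higher in N+T-r3, 94.8% were higher in P+T than in P and 238 passed the test there, with a median log2 fold change of 0.85. Of the 682 that were not, 73.8% were higher in P+T and 17 passed, with a median of 0.27, where 48.8% of all loci were higher in P+T and 368 (2.05%) passed. Among the down-regulated loci the shares lower in P+T were 95.2% for the 707 with a lower value in N+T-r3 (169 passed) and 82.7% for the other 629 (36 passed), and 438 of all loci (2.44%) were called lower there. These shares describe sets formed from the replicate 3 values and carry no test of the difference between them.

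Several of the loci with the largest changes in replicates 1 and 2 were in the opposite order in replicate 3. DOX1, a fatty acid alpha-dioxygenase of oxylipin synthesis induced by pathogens, was at 0, 0 and 3.96 CPM in the N libraries and at 76.4, 44.5 and 0 CPM in the N+T libraries. DXPS1, a deoxyxylulose phosphate synthase-like enzyme, was at 0, 0 and 5.45 CPM in the N libraries and at 47.8, 9.01 and 0 CPM in the N+T libraries. Both were absent from N-r1 and -r2 and present in N-r3, and absent from N+T-r3. Against a floor of 3 counts per library, DOX1 was at least 320.5-fold higher in N+T-r1 and -r2 than in the shallower of N-r1 and -r2 and DXPS1 at least 150.4-fold (adjusted p = 0.0491 and 0.0263). The same holds for WRKY67, a transcription factor (at least 45.6-fold), and MSRB7, a methionine sulfoxide reductase (at least 34.5-fold). AT4G16260, annotated as a glycosyl hydrolase, was at 0.0629, 0 and 26.1 CPM in the N libraries and at 162, 112 and 0 CPM in the N+T libraries. At the other end, GOLS3, a galactinol synthase, was at 10.9, 23.6 and 41.5 CPM in the N libraries and at 0.686, 0.109 and 2.68 CPM in the N+T libraries (log2 fold change -5.95 ± 1.38 (SE), adjusted p = 0.0281), so that its groups did not overlap. The growth-regulating factor GRF4 was at 5.79, 7.55 and 5.8 CPM in the N libraries and at 0.412, 0.109 and 5.65 CPM in the N+T libraries (log2 fold change -5.05 ± 0.63 (SE), adjusted p = 0.0061); N+T-r3 was close to the N libraries. AT2G41990 was between 1.84 and 2.6 CPM in N and between 0.0363 and 0.297 CPM in N+T. AT4G36770 was at 0 in N+T-r1 and -r2, at least 2.84-fold lower than in N-r1 and -r2, but was also low in N-r3 (0.118 CPM).

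Genes widely used as markers of EL were split. The cytosolic ascorbate peroxidase APX2 (AT3G09640, chromosome 3, 2956156 to 2958330 in TAIR10) had 0 counts in every N library and 64, 29 and 44 counts in N+T-r1, N+T-r2 and N+T-r3, at least 26.1-fold higher over replicates 1 and 2 (adjusted p = 0.0301). DREB2A, a factor that drives dehydration and heat genes, was at 8.37, 5.53 and 3.17 CPM in the N libraries and at 347, 56 and 54.4 CPM in the N+T libraries (log2 fold change 4.89 ± 1.25 (SE), adjusted p = 0.0367), with no overlap of the groups. ZAT12, a zinc finger repressor of the oxidative response, was at 1.7, 1.37 and 16.2 CPM in the N libraries and at 119, 23.5 and 7.14 CPM in the N+T libraries (log2 fold change 5.57 ± 1.34 (SE), adjusted p = 0.0313); N-r3 was higher than N+T-r3. ZAT10 was at 12.1, 5.11 and 25.7 CPM in the N libraries and at 127, 12.8 and 8.62 CPM in the N+T libraries and did not pass (adjusted p = 0.142), again with N-r3 above N+T-r3. The early light-induced protein ELIP1, a pigment-binding protein of the thylakoid, was at 1.64, 1.33 and 7.87 CPM in the N libraries and at 11.5, 7.99 and 10.1 CPM in the N+T libraries, in the same order in all replicates but without passing (log2 fold change 2.73 ± 0.95, adjusted p = 0.0816). ELIP2 had between 1 and 15 counts in the 6 libraries and was not tested. HSFA2 and HSP101, described with the chaperones, were far higher in each N+T library than in any N library and missed the threshold. Of the 7 tested members of the ELIP and LHC-like list, only SEP2 passed (log2 fold change 1.31, adjusted p = 0.039), and it was lower in N+T-r3 than in N-r3.

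**Figure D2:**
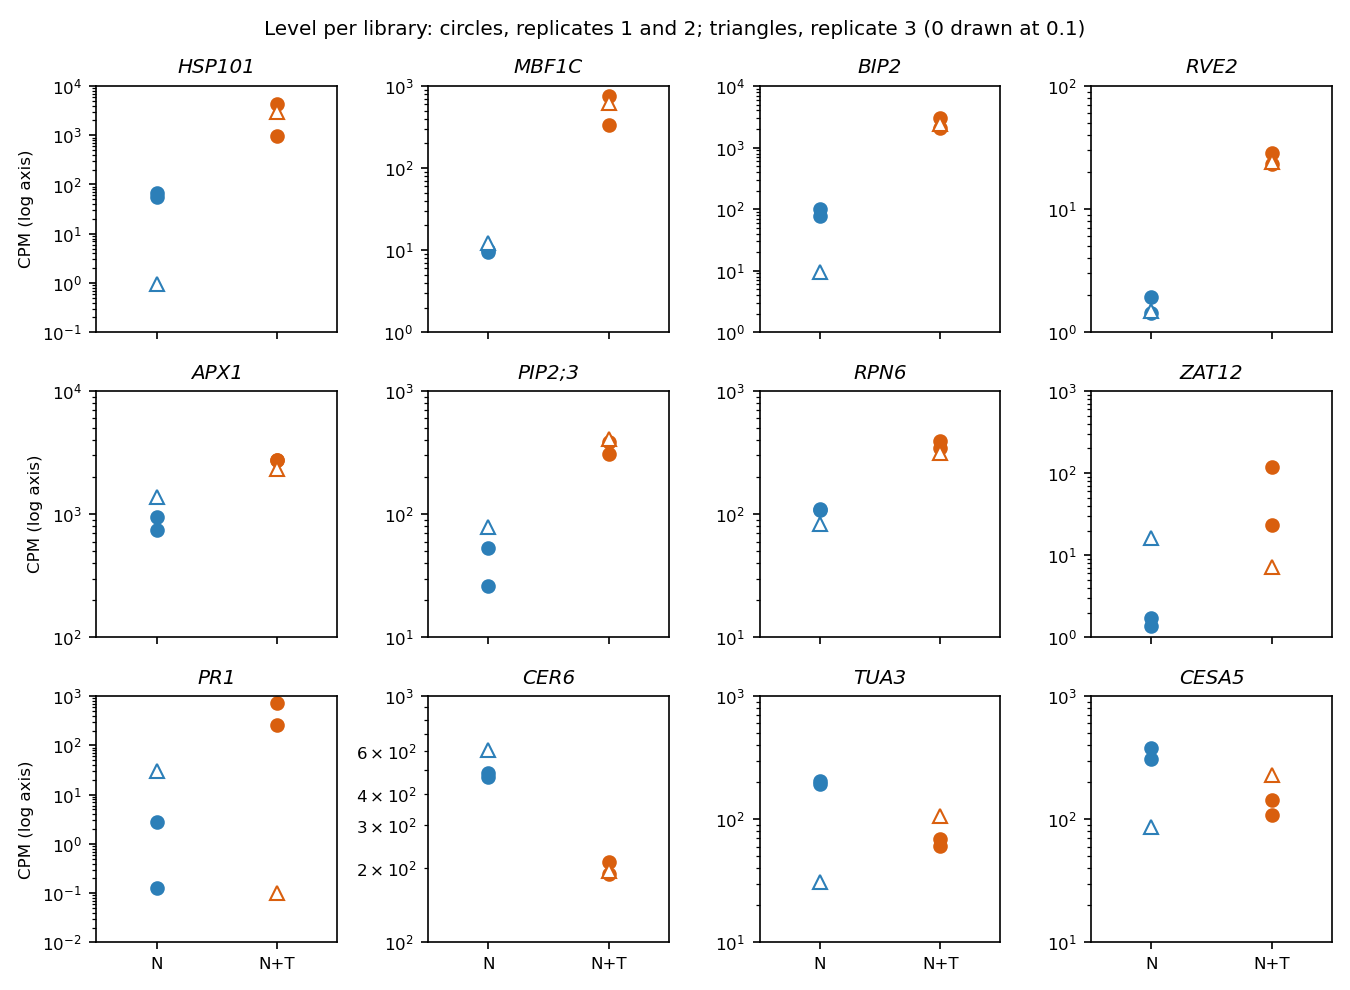
Level of 12 genes in each library as CPM on log axes, N in blue and N+T in orange, with circles for replicates 1 and 2 and open triangles for replicate 3. For HSP101, MBF1C, BIP2, RVE2, APX1, PIP2;3, RPN6 and CER6 the triangles keep the order of the circles, while for ZAT12, PR1, TUA3 and CESA5 the 2 triangles are in the opposite order.

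Cytosolic and organelle chaperones rose together, and replicate 3 agreed for every member that passed. Of the 17 small heat shock proteins, holdases that keep unfolding proteins soluble, all 17 were tested, 6 passed and 16 had a positive fold change, with a median log2 fold change of 6.27 and of 8.89 in replicate 3. Among the 19 HSP70, HSP90 and HSP100 chaperones, ATP-driven refolding and disaggregating machines, 11 passed and all 19 were higher in both readings (medians 2.54 and 5.04). Of 17 co-chaperones, 9 passed (medians 2.30 and 4.71). The shares called higher were 35.3%, 57.9% and 52.9% of the 3 lists, against 7.74% of all loci. All 26 called members of these lists had every N+T library above every N library, against 44.7% of all up-regulated loci. With all 12 libraries 9, 11 and 8 members were called. Summed over the small heat shock proteins, the level was 319, 173 and 129 CPM in the N libraries and 16646, 5582 and 16244 CPM in the N+T libraries. The HSP70, HSP90 and HSP100 genes summed to 5945, 5879.6 and 1385 CPM in the N libraries and 49757, 31294 and 47329 CPM in the N+T libraries. N-r3 was the lowest library and N+T-r1 and N+T-r3 the highest, so the replicate 3 difference was the larger. With 1 of the 4 main libraries left out, the medians of the 3 lists ranged over 4.63 to 7.08, 2.44 to 3.06 and 2.26 to 2.55.

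Single chaperones were higher in each N+T library than in any N library. AT1G54050, a class III small heat shock protein on chromosome 1 (20179357 to 20180566), was at 20.2, 14.4 and 10.5 CPM in the N libraries and at 1166, 293 and 1031 CPM in the N+T libraries (log2 fold change 5.43 ± 1.19 (SE), adjusted p = 0.0243). HSP21, the plastid small heat shock protein that protects photosystem II, was at 0, 0.0651 and 0 CPM in the N libraries and at 75.3, 2.18 and 19.9 CPM in the N+T libraries (adjusted p = 0.048), and the organelle-type AT1G52560 was at 0, 0.0651 and 0 CPM in the N libraries and at 117, 2.62 and 13.4 CPM in the N+T libraries (adjusted p = 0.0346). Neither was above 2 counts in any N library, so no fold is given for them. HSP70-2 was at 31.8, 23.2 and 17.5 CPM in the N libraries and at 1685, 939 and 246 CPM in the N+T libraries (log2 fold change 5.60 ± 0.76 (SE), adjusted p = 0.00791). Hsp70b varied more, and was at 6.04, 7.03 and 0.431 CPM in the N libraries and at 1151, 35.7 and 198 CPM in the N+T libraries (log2 fold change 6.54 ± 1.67 (SE), adjusted p = 0.0367). HSP101, the disaggregase needed for acquired thermotolerance, was at 68.7, 54.8 and 0.94 CPM in the N libraries and at 4222, 951 and 2931 CPM in the N+T libraries; the groups were far apart, but the spread kept it above the threshold (log2 fold change 5.42 ± 2.01, adjusted p = 0.0954). MBF1C, a transcriptional coactivator of the heat response, was at 9.56, 10.1 and 12.3 CPM in the N libraries and at 765, 334 and 621 CPM in the N+T libraries (log2 fold change 5.83 ± 1.39 (SE), adjusted p = 0.0308), and BAG6, a co-chaperone of HSP70, was at 36.4, 30.5 and 0.509 CPM in the N libraries and at 1568, 242 and 634 CPM in the N+T libraries (log2 fold change 4.79 ± 1.30 (SE), adjusted p = 0.0431).

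Heat shock factors, which drive these chaperones, followed in part. Of 21 listed, 17 were tested and 4 passed, all higher (23.5%, against 7.74% of all loci). All 4 had non-overlapping groups, against 44.7% of all up-regulated loci. HSFA7A was at 0.755, 1.33 and 0.901 CPM in the N libraries and at 225, 53.5 and 194 CPM in the N+T libraries (log2 fold change 7.03 ± 1.93 (SE), adjusted p = 0.0444). HSFB1 was at 15.8, 10.1 and 43.9 CPM in the N libraries and at 436, 156 and 122 CPM in the N+T libraries (log2 fold change 4.55 ± 1.01 (SE), adjusted p = 0.0253), with N-r3 raised and the replicate 3 difference smaller at 1.48. HSFA2, the factor that sustains the heat response, was at 25.7, 25.5 and 7.44 CPM in the N libraries and at 2082, 547 and 1486 CPM in the N+T libraries and did not pass (log2 fold change 5.71 ± 2.46, adjusted p = 0.136).

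The heat shock element, to which heat shock factors bind as inverted repeats of nGAAn, was searched as its core GAANNTTC on both strands in the 250 bases before the start of each locus. It was found in 4 of 17 small heat shock protein promoters (23.5%), in 4 of 17 heat shock factor promoters (23.5%) and in 0 of 19 HSP70, HSP90 and HSP100 promoters, in 2 of 17 co-chaperone promoters (11.8%), and in 5 of 9 ZAT (55.6%) and 6 of 15 salicylate promoters (40.0%), against 9.54% of 17985 promoters of the same length. It was present in 13.6% of the promoters of up-regulated and 9.13% of those of down-regulated loci. Among up-regulated loci the share was 14% where all 6 libraries were separated and 13.4% where replicate 3 overlapped. The core reads the same on both strands, and inverted repeats in the opposite order were not searched. A promoter counted here as without the core, including those of the HSP70, HSP90 and HSP100 genes, may therefore still hold the element in that order. The windows of 3 called genes are shown because each holds the core, which is written in capitals; they read 5′ to 3′ on the strand of the gene and were taken from the TAIR10.1 reference, whose nuclear coordinates are those of TAIR10, at chr4:13819972-13820221 (reverse strand) for HSP21, chr1:19575867-19576116 (reverse strand) for AT1G52560 and chr3:19264891-19265140 (forward strand) for HSFA7A.
HSP21: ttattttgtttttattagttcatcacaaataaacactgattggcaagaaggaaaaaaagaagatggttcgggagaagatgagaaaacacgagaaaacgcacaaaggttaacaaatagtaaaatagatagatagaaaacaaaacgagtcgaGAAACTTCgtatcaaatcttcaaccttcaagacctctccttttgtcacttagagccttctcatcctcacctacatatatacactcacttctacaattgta
AT1G52560: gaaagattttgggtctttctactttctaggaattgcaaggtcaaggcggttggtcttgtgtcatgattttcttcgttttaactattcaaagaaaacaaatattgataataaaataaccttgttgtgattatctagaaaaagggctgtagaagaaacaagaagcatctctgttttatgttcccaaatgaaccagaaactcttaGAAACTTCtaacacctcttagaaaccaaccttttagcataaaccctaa
HSFA7A: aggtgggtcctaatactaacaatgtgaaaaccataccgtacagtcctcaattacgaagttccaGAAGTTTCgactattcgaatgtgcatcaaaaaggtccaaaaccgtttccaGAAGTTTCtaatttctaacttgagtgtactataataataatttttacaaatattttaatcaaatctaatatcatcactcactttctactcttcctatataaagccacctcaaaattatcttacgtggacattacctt
HSP21 and AT1G52560 carry 1 core each and HSFA7A carries 2. Repeats in the opposite order were not searched or marked in these windows.

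The unfolded protein response of the endoplasmic reticulum gave the most complete family response. Of 20 genes listed, 19 were tested and 17 passed, all higher (89.5%, against 7.74% of all loci). The median log2 fold change was 3.30, and 2.71 in replicate 3. All 17 had non-overlapping groups over the 6 libraries, against 44.7% of all up-regulated loci. With all 12 libraries 16 were called, and 14 were still called without N+T-r1, although 0 were without N-r1 or N-r2 (leave-one-out medians 2.92 to 3.63). In P+T against P, 12 of the 19 were called higher, against 2.05% of all loci, and the median log2 fold change was 2.40. BIP2, the HSP70 of the endoplasmic reticulum (AT5G42020, chromosome 5, 16807342 to 16810693), was at 101, 76.9 and 9.52 CPM in the N libraries and at 2094, 3002 and 2379 CPM in the N+T libraries (log2 fold change 4.85 ± 0.56 (SE), adjusted p = 0.00495). Levels in N-r3 were below those in N-r1 and -r2, as for the HSP70, HSP90 and HSP100 sum. PDIL2-2, a protein disulfide isomerase, was at 10.3, 6.9 and 8.78 CPM in the N libraries and at 173, 292 and 158 CPM in the N+T libraries (log2 fold change 4.78 ± 0.58 (SE), adjusted p = 0.00558). BIP3, the stress-specific BiP, was at 1.07, 0.748 and 0.823 CPM in the N libraries and at 60.8, 259 and 2.97 CPM in the N+T libraries (log2 fold change 7.49 ± 1.67 (SE), adjusted p = 0.0253), and N+T-r3 exceeded N-r3 by less than the other N+T libraries did. BIP2 shares 13.1% of its 64-base words with BIP1, and since only uniquely mapping reads were kept, the split between both is less certain than their sum. The family summed to 1612, 1331 and 683 CPM in the N libraries and 12019.9, 21909.5 and 13084 CPM in the N+T libraries.

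Elements through which bZIP28 and bZIP60 act were found in few windows of the family, though in a larger share than over all promoters. The endoplasmic reticulum stress response element, CCAAT and CCACG with 9 bases between them on either strand, was found in 2 of 19 promoters of the family (10.5%) against 0.417% of all promoters, and TGACGTGG, an unfolded protein response element, in 3 (15.8% against 1.65%). The former was in 13 of the 622 up-regulated promoters with separated groups, in 8 of the other 770 and in 2 of 1336 down-regulated ones. A match is a description of the letters and not a binding site. PDIL1-2 is shown because its window holds the element and overlaps no other locus, and it was chosen after its values were seen. It encodes a protein disulfide isomerase that rose (log2 fold change 4.05, 3.30 in replicate 3), and the element is in capitals in its window at chr1:29126398-29126647 (forward strand).
PDIL1-2: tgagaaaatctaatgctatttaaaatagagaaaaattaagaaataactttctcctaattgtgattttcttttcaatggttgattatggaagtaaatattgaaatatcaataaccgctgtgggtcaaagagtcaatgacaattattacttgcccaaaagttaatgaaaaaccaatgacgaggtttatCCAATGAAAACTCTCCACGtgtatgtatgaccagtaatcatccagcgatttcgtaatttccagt
Its CCACG end is followed directly by the bases that complete a G-box core, CACGTG, which 6 of the 19 promoters hold (31.6% against 7.52% of all).

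Antioxidant enzymes moved little as a family. Of 29 ascorbate peroxidases, catalases, dismutases and related enzymes, 4 rose (13.8%, against 7.74% of all loci) and 0 fell (median 0.12, 0.28 in replicate 3). APX1, the main cytosolic ascorbate peroxidase, was at 944, 744 and 1367 CPM in the N libraries and at 2759, 2777 and 2335 CPM in the N+T libraries (log2 fold change 1.73 ± 0.34 (SE), adjusted p = 0.0181), and its groups did not overlap. AOX1A, the mitochondrial alternative oxidase, was at 72.2, 57.8 and 102 CPM in the N libraries and at 310.0, 107 and 179.6 CPM in the N+T libraries (log2 fold change 1.71 ± 0.43 (SE), adjusted p = 0.0365), with N+T-r2 only just above N-r3. It belongs to the list of mitochondrial stress and alternative respiration genes, of which 2 of 11 tested rose (median 1.74). In replicate 3 the median of that list was -1.01 and 4 of 11 were positive. Of the 2 that rose, only AOX1A was higher in N+T-r3. With all 12 libraries 1 member of the list was called. BCH1, a carotene hydroxylase of xanthophyll synthesis, was the only one of 21 quenching, xanthophyll and carotenoid genes to pass (4.76%, against 7.74% of all loci). It was at 20.6, 24.1 and 23 CPM in the N libraries and at 67.7, 40.5 and 51.1 CPM in the N+T libraries (log2 fold change 1.29 ± 0.36 (SE), adjusted p = 0.0454), with all N+T libraries above all N libraries. VTE2, the first committed enzyme of tocopherol synthesis, was at 19.1, 23.4 and 54.9 CPM in the N libraries and at 99.4, 58.1 and 39 CPM in the N+T libraries (log2 fold change 1.91 ± 0.36 (SE), adjusted p = 0.017), where N-r3 exceeded N+T-r3.

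Detoxification and redox signalling genes rose in replicates 1 and 2 and mostly not in replicate 3. Of 28 tau glutathione transferases, which conjugate glutathione to toxic and oxidised compounds, 20 were tested and 5 passed (25.0%, against 7.74% of all loci). The list median was 2.73 but -1.81 in replicate 3. Of the 5, only GSTU5, named for this reason, was higher in N+T-r3. GSTU10 was at 0.378, 0.358 and 2.66 CPM in the N libraries and at 45, 16.5 and 0.297 CPM in the N+T libraries (log2 fold change 6.39 ± 1.66 (SE), adjusted p = 0.0387). Among CC-type glutaredoxins 6 of 17 rose (35.3%), and 1 of these was higher in N+T-r3 (list median 0.19, -1.89 in replicate 3). Among the ZAT zinc finger repressors 5 of 9 rose (55.6%), and 0 of these were higher in N+T-r3 (list median 3.98, -1.58 in replicate 3). In P+T against P, 0 of the 17 glutaredoxins were called higher and 4 lower, against 2.05% and 2.44% of all loci. Without N+T-r1 the medians were 2.01 for the ZAT list and 1.19 for the glutathione transferases, and without N+T-r2 that of the glutaredoxins was -0.43. With all 12 libraries 1, 0 and 0 members of the glutathione transferase, glutaredoxin and ZAT lists were called. Set against N-r1 and -r2, the median member of the ZAT list was higher by 3.99 and 2.04 log2 units in N+T-r1 and -r2, by 2.18 in N-r3 and by 0.13 in N+T-r3. In this list the untriggered N-r3 was close to N+T-r2, and N+T-r3 was close to N-r1 and -r2.

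Defence genes of the salicylate pathway showed the same split. Of 15 genes, all higher in N+T-r1 and -r2 by the fit, 5 passed (33.3%, against 7.74% of all loci) and 0 with all 12 libraries. The median was 2.56 (leave-one-out 2.36 to 2.63). In replicate 3, 1 of 15 was higher in N+T-r3 than in N-r3 (median -1.29). PR1, the antimicrobial marker of salicylate signalling, was at 2.77, 0.13 and 30.8 CPM in the N libraries and at 257, 730.2 and 0 CPM in the N+T libraries (log2 fold change 8.55 ± 2.34 (SE), adjusted p = 0.0442). Its value in N+T-r3 is a count of 0, which at the depth of that library allows up to 0.892 CPM. FMO1 and ALD1, which make the systemic signal N-hydroxypipecolate, were at 35.4 and 17.6 CPM and at 13.7 and 14.4 CPM in N+T-r1 and -r2 and under 1 CPM in each of the other 4 libraries (adjusted p = 0.0271 and 0.0193). WRKY75, a factor that promotes senescence, was at 0.126, 0 and 3.76 CPM in the N libraries and at 53.4, 7.19 and 0 CPM in the N+T libraries (adjusted p = 0.04). The senescence markers moved with these genes, 2 of 3 tested having risen, and their part in the result was not tested. Of 48 WRKY genes tested 4 rose and 2 fell (8.33% and 4.17%, against 7.74% and 7.43% of all loci). The median of the list was 0.69, and -1.39 in replicate 3.

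Other stress hormone lists had few calls and opposite medians in replicate 3. Rapid ethylene response factors had 1 of 16 higher (median 1.04, -2.40 in replicate 3, 0 of 16 positive), ABA and dehydration genes 2 of 18 (1.85 and -1.65), and calmodulin-like proteins 1 of 9 (1.52 and -1.49). These shares were 6.25%, 11.1% and 11.1%, against 7.74% of all loci. None of 24 jasmonate genes (0.67 and -1.52) and none of 7 cold-regulated and dehydrin genes passed in the edgeR test. The medians of the ethylene, ABA and calmodulin-like lists depended on N+T-r1, and were -0.32, 0.24 and 0.58 without it. CBF3, a factor of cold acclimation, fell. It was at 12.3, 15.2 and 35.1 CPM in the N libraries and at 1.92, 0.908 and 3.57 CPM in the N+T libraries (log2 fold change -3.37 ± 0.72 (SE), adjusted p = 0.0229), with no overlap in 6 libraries.

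Proteasome genes rose in replicates 1 and 2 by similar amounts. Of 40 tested subunits of the 26S proteasome, the protease that degrades ubiquitinated proteins, 26 passed as higher (65.0%) and 38 had a positive fold change, with a median log2 fold change of 0.74 (leave-one-out 0.69 to 0.76). With all 12 libraries 2 were called, with N-r3 added 4 and with N+T-r3 added 8. Only 6 of the 26 had non-overlapping groups, a smaller share than the 44.7% of all up-regulated loci. Of the 26, 7 were higher in N+T-r3 and all 7 are subunits of the regulatory particle, which unfolds substrates, while the called subunits that were lower were the regulatory RPN10 and the called alpha and beta subunits of the catalytic core. This was noticed after the values were seen and carries no test. RPN6, a lid subunit, was at 108, 109.6 and 83.3 CPM in the N libraries and at 392, 346 and 315 CPM in the N+T libraries (log2 fold change 1.78 ± 0.24 (SE), adjusted p = 0.00784; with all 12 libraries adjusted p = 0.00438). PBD2, a beta subunit of the core, was at 28.4, 31.1 and 75.9 CPM in the N libraries and at 65.3, 67.1 and 44.6 CPM in the N+T libraries (log2 fold change 1.17 ± 0.15 (SE), adjusted p = 0.00676), and N-r3 had the highest level of all. Of 27 autophagy genes 3 rose (11.1%, against 7.74% of all loci; median 0.51) and 0 were called with all 12 libraries. Of the 3, 1 was higher in N+T-r3. ATG8H, a ubiquitin-like protein of the autophagosome membrane, was at 4.78, 3.94 and 14.4 CPM in the N libraries and at 54.1, 18.1 and 5.95 CPM in the N+T libraries (log2 fold change 3.07 ± 0.56 (SE), adjusted p = 0.0154). Peroxisomal beta-oxidation and glyoxylate cycle genes rose at 5 of 13 (38.5%, against 7.74% of all loci). Of these 5, 4 were also higher in N+T-r3 (list median 0.93, 0.20 in replicate 3).

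Genes of the light reactions had mostly negative fold changes, and few passed the test. Light-harvesting antenna genes had 1 of 21 called lower, a share of 4.76% that is below the background of 7.43%, while 20 of 21 had a negative fold change (median -1.01, leave-one-out -1.08 to -0.86) and 21 of 21 were lower in N+T-r3 than in N-r3 (median -0.97). Their summed level was 66759, 72123 and 142838 CPM in the N libraries and 31679.7, 38169 and 65806 CPM in the N+T libraries. N-r3 stood at the top, and N+T-r3 lay just below N-r1, so the sums did not overlap but came close. LHCB1.2 (AT1G29910, chromosome 1, 10472280 to 10473502), an antenna protein of photosystem II, was at 4740.1, 4914 and 7270.2 CPM in the N libraries and at 1499, 1324 and 4365 CPM in the N+T libraries (log2 fold change -1.76 ± 0.40 (SE), adjusted p = 0.027), with N+T-r3 just below N-r1. It shares 5.69% of its 64-base words with LHCB1.1 and LHCB1.3. Of 27 photosystem and electron transport subunits 1 passed (3.70%, against 7.43% of all loci), and all 27 had a negative fold change (median -0.57, -0.78 in replicate 3 with 2 of 27 positive). Set against N-r1 and -r2, the median member lay at 0.17 log2 units in N+T-r3 and at 0.95 in N-r3. The summed level was 57944 CPM in N+T-r3, above the 47846 and 53241 CPM of N-r1 and -r2, and 98881 CPM in N-r3. PSAN, a lumenal subunit of photosystem I, was at 1579, 1814 and 3788 CPM in the N libraries and at 689.8, 776 and 1568 CPM in the N+T libraries (log2 fold change -1.19 ± 0.30 (SE), adjusted p = 0.0353).

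Carbon fixation and repair of photosystem II showed no calls. None of 23 Rubisco and Calvin-Benson cycle genes (median 0.01, 0.10 in replicate 3), of 11 photorespiration genes (0.03 and 0.83) or of 10 photosystem II repair proteases and kinases (-0.14 and 0.27) passed. The Rubisco small subunit RBCS1A was between 12586 and 18236 CPM in N and between 11195 and 18512 CPM in N+T (log2 fold change -0.20 ± 0.33, adjusted p = 0.689). In chlorophyll synthesis 1 of 19 passed (5.26%, against 7.43% of all loci called lower). CHLI2, a magnesium chelatase subunit, was at 93.3, 111 and 112 CPM in the N libraries and at 51.7, 47.4 and 116 CPM in the N+T libraries (log2 fold change -1.03 ± 0.25 (SE), adjusted p = 0.031), with N+T-r3 at the level of untriggered leaves. Of 16 starch genes 1 rose and 2 fell, against 7.74% and 7.43% of all loci. BAM1, a plastid beta-amylase of stress-induced starch breakdown, was at 65.1, 50.8 and 87 CPM in the N libraries and at 903, 221 and 88.9 CPM in the N+T libraries (log2 fold change 3.31 ± 0.65 (SE), adjusted p = 0.0184), but N-r3 and N+T-r3 were almost equal.

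Alpha-expansins fell, and the called members were lower in replicate 3 too. Among 12 alpha-expansins, which let walls extend during growth, 5 passed as lower (41.7%, against 7.43% of all loci). The list median was -1.12, and -0.58 in replicate 3. All 5 had non-overlapping groups, against 47.7% of all down-regulated loci, and 2 were called with all 12 libraries. EXPA11 was at 18, 30.3 and 58.2 CPM in the N libraries and at 1.24, 4.8 and 8.92 CPM in the N+T libraries (log2 fold change -2.88 ± 0.66 (SE), adjusted p = 0.0278). EXPA5 was at 62.6, 55.9 and 63 CPM in the N libraries and at 18.4, 23.2 and 45.2 CPM in the N+T libraries (log2 fold change -1.49 ± 0.37 (SE), adjusted p = 0.0333), a smaller difference in replicate 3. Of 19 xyloglucan endotransglucosylases, which cut and rejoin wall xyloglucan, 3 fell and were lower in N+T-r3 too, and 2 rose and were not higher in N+T-r3, with a list median of -0.03. These shares were 15.8% and 10.5%, against 7.43% lower and 7.74% higher among all loci. XTH4 was at 144, 252 and 241 CPM in the N libraries and at 29.8, 24.4 and 96.9 CPM in the N+T libraries (log2 fold change -2.85 ± 0.45 (SE), adjusted p = 0.0104). Wax genes of the cuticle fell at 3 of 8 (37.5%, against 7.43% of all loci), and 2 of these were lower in N+T-r3. The list median was -1.11 but 0.40 in replicate 3, where 4 of 8 were positive. CER6, the fatty acid elongase for long wax chains, was at 487, 469.9 and 602 CPM in the N libraries and at 190.2, 213 and 195 CPM in the N+T libraries (log2 fold change -1.23 ± 0.26 (SE), adjusted p = 0.0218), and CER2, which acts with it, was at 41.7, 42.7 and 13.2 CPM in the N libraries and at 5.9, 3.63 and 7.43 CPM in the N+T libraries (log2 fold change -3.17 ± 0.27 (SE), adjusted p = 0.00386). WSD1, the wax ester synthase, was at 7.24 and 11.2 CPM in N-r1 and -r2 and under 1 CPM in N+T-r1 and -r2 (adjusted p = 0.0152), whereas in replicate 3 it was higher in N+T than in N, at 4.16 against 1.18 CPM.

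Cellulose synthesis, tubulins and the cell cycle fell in replicates 1 and 2, and most called members were higher in N+T-r3 than in N-r3. All 9 tested cellulose synthase catalytic subunits had a negative fold change and 5 passed (median -1.09, leave-one-out -1.20 to -0.97) and 0 with all 12 libraries, while all 9 were higher in N+T-r3 than in N-r3 (median 1.38). CESA5 was at 306, 382 and 87.1 CPM in the N libraries and at 109, 145 and 227 CPM in the N+T libraries (log2 fold change -1.42 ± 0.34 (SE), adjusted p = 0.0312), and CESA2 was at 217, 248 and 53.9 CPM in the N libraries and at 80.7, 103 and 114 CPM in the N+T libraries (log2 fold change -1.33 ± 0.24 (SE), adjusted p = 0.0155). N-r3 was the lowest of the 6 libraries for both. Tubulins fell at 7 of 15 (median -0.67, 0.56 in replicate 3), of which 1, TUB5, was lower in N+T-r3. It was at 249.7, 340.4 and 232 CPM in the N libraries and at 51.2, 53.6 and 138 CPM in the N+T libraries (log2 fold change -2.48 ± 0.32 (SE), adjusted p = 0.00648). TUA3 was at 192, 203 and 30.8 CPM in the N libraries and at 61.2, 69.4 and 106 CPM in the N+T libraries (log2 fold change -1.58 ± 0.19 (SE), adjusted p = 0.00558), and shares 26% of its 64-base words with the neighbouring TUA5. Of 26 cyclins 5 fell and 2 of these were lower in N+T-r3. The shares called lower were 55.6% of cellulose synthases, 46.7% of tubulins and 19.2% of cyclins, against 7.43% of all loci. CYCB2;2 was at 2.01 and 2.44 CPM in N-r1 and -r2, at 0.686 and 0.654 CPM in N+T-r1 and -r2, and at 0.274 and 1.49 CPM in N-r3 and N+T-r3 (adjusted p = 0.0374).

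Ribosome biogenesis factors had few calls, at 9.09% lower against 7.43% of all loci. All 11 factors had a negative fold change, 1 passed (median -0.45) and 8 were higher in N+T-r3 (median 1.01); the called one, PUM24, was at 31.4, 32.6 and 2.51 CPM in the N libraries and at 13.4, 16.3 and 22.3 CPM in the N+T libraries (log2 fold change -1.08 ± 0.30 (SE), adjusted p = 0.0457). Of 26 cytosolic ribosomal proteins none passed in the edgeR test (median 0.12, 0.11 in replicate 3). Among auxin lists, 1 of 22 Aux/IAA repressors fell (4.55%, against 7.43% of all loci), with medians of -0.70 and -0.34. Of 42 SAUR genes 4 rose (9.52%, against 7.74% of all loci), 1 of them also in replicate 3. The epidermis markers summed above were likewise low in N-r3 and in N+T-r1 and -r2, and high in N+T-r3. Of 15 DNA methylation and demethylation enzymes 1 was called lower (6.67%, against 7.43% of all loci, median -0.20). The list stood out through N-r3, in which the median member was -3.32 log2 units from N-r1 and -r2. Its summed level there was 35.5 CPM against 262 to 329 CPM in the other 5 libraries.

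Aquaporins, morning clock genes and light signalling genes that passed kept their direction in replicate 3. Of 13 plasma membrane aquaporins, channels for water, 3 rose (23.1%, against 7.74% of all loci) and 1 fell (7.69%, against 7.43%). All had non-overlapping groups, against 44.7% of all up-regulated and 47.7% of all down-regulated loci. PIP2;3 was at 52.9, 26.2 and 78.1 CPM in the N libraries and at 310.4, 385 and 409 CPM in the N+T libraries (log2 fold change 3.15 ± 0.58 (SE), adjusted p = 0.0153), and shares 23.6% of its 64-base words with PIP2;2, which also rose and shares 21.6% of its own. PIP1;2 was at 594, 629 and 822 CPM in the N libraries and at 1231, 1656 and 1743 CPM in the N+T libraries (log2 fold change 1.25 ± 0.26 (SE), adjusted p = 0.0208). PIP1;5 went the other way, and was at 117, 141 and 212 CPM in the N libraries and at 37.2, 40.3 and 110.3 CPM in the N+T libraries (log2 fold change -1.72 ± 0.40 (SE), adjusted p = 0.0278). In P+T against P, 4 of the 13 were called higher, against 2.05% of all loci.

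Of 15 morning genes 4 rose (26.7%, against 7.74% of all loci), and 4 were called with all 12 libraries. The list median was 1.39, and 0.89 in replicate 3. All 4 that rose had non-overlapping groups, against 44.7% of all up-regulated loci. In P+T against P, 3 were called higher and 1 lower, against 2.05% and 2.44% of all loci, with a median of -0.38. Harvest times are not given, so time of day and the trigger cannot be told apart for these genes. RVE2, a MYB factor that links clock and cold response, was at 1.95, 1.43 and 1.49 CPM in the N libraries and at 23.5, 28.3 and 24.1 CPM in the N+T libraries (log2 fold change 3.96 ± 0.51 (SE), adjusted p = 0.00648). LNK1, a coactivator of evening genes expressed from the morning, was at 65.9, 61.3 and 18.3 CPM in the N libraries and at 159, 146 and 154 CPM in the N+T libraries (log2 fold change 1.28 ± 0.22 (SE), adjusted p = 0.0137). None of 11 afternoon and evening genes passed, but GI, an evening regulator, was at 247 and 257 CPM in N-r1 and -r2, 17.5 CPM in N-r3 and 167 to 201 CPM in the N+T libraries, with N-r3 far below the rest. HYH, a bZIP factor that acts with HY5 in blue and UV-B light, was at 3.46, 3.55 and 4.31 CPM in the N libraries and at 13.2, 20.9 and 16.9 CPM in the N+T libraries (log2 fold change 2.30 ± 0.49 (SE), adjusted p = 0.0223), and BBX32, a B-box regulator of light responses, was at 0.692, 0.358 and 1.21 CPM in the N libraries and at 10.2, 10.4 and 5.95 CPM in the N+T libraries (log2 fold change 4.35 ± 0.77 (SE), adjusted p = 0.0139). Of 29 light signalling genes 3 rose, these and BBX30 (10.3%, against 7.74% of all loci), and all 3 were higher in N+T-r3. BBX21, another B-box factor, fell and was lower in N+T-r3 (log2 fold change -0.79, -1.49 in replicate 3).

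Of 5 sulfate reduction and sulfur starvation genes 2 rose and all 5 had a positive fold change (median 2.15, leave-one-out 2.08 to 2.22), and of 14 nitrate and nitrogen assimilation genes 3 rose and 1 fell (median 0.63). With all 12 libraries 0 members of both lists were called. For the nitrate and nitrogen list the shares were 21.4% higher and 7.14% lower, against 7.74% and 7.43% of all loci. The sulfur list had 40.0% called higher. NIA2, a nitrate reductase, was at 105, 67.8 and 136 CPM in the N libraries and at 377, 413 and 156 CPM in the N+T libraries (log2 fold change 2.21 ± 0.63 (SE), adjusted p = 0.0482), whereas it fell in P+T against P (log2 fold change -2.41, adjusted p = 0.0384); the interaction of both responses did not pass (log2 difference 4.62, adjusted p = 0.137). NRT2.1, a high-affinity nitrate transporter, was at 3.08 and 2.15 CPM in N-r1 and -r2 and under 0.3 CPM in the other 4 libraries (adjusted p = 0.02). APR3, which reduces activated sulfate, was at 19.4, 20.4 and 35 CPM in the N libraries and at 388, 101 and 38.7 CPM in the N+T libraries (log2 fold change 3.64 ± 0.71 (SE), adjusted p = 0.0176), with little difference in replicate 3. LSU1, a sulfur starvation gene, was at 0, 0.0976 and 9.25 CPM in the N libraries and at 6.72, 3.41 and 0 CPM in the N+T libraries (adjusted p = 0.0137), the reverse order in replicate 3. MYB28, the regulator of aliphatic glucosinolates, was at 126, 151 and 113 CPM in the N libraries and at 20.6, 41 and 65.1 CPM in the N+T libraries (log2 fold change -2.15 ± 0.34 (SE), adjusted p = 0.0102), with N+T below N throughout. Flavonoid genes had 1 called up and 1 called down among 22, namely C4H of the phenylpropanoid route (log2 fold change 1.31, -0.43 in replicate 3) and the flavonol synthase FLS1 (-1.55, -0.76 in replicate 3). Each share was 4.55%, against 7.74% called higher and 7.43% called lower among all loci. Of 5 raffinose genes GOLS2 rose (3.79) and GOLS3 fell (20.0% each, against 7.74% and 7.43% of all loci). GOLS2 was lower in N+T-r3 than in N-r3. The starch genes that fell were the phosphorylase PHS2 and the ADP-glucose pyrophosphorylase subunit APL4 (log2 fold change -1.20 and -1.24), at 1.37 and -0.05 in replicate 3. Dark-inducible genes had 1 call among 21 (4.76%, against 7.74% of all loci), PPDK (log2 fold change 2.28, -0.77 in replicate 3).

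**Figure D3:**
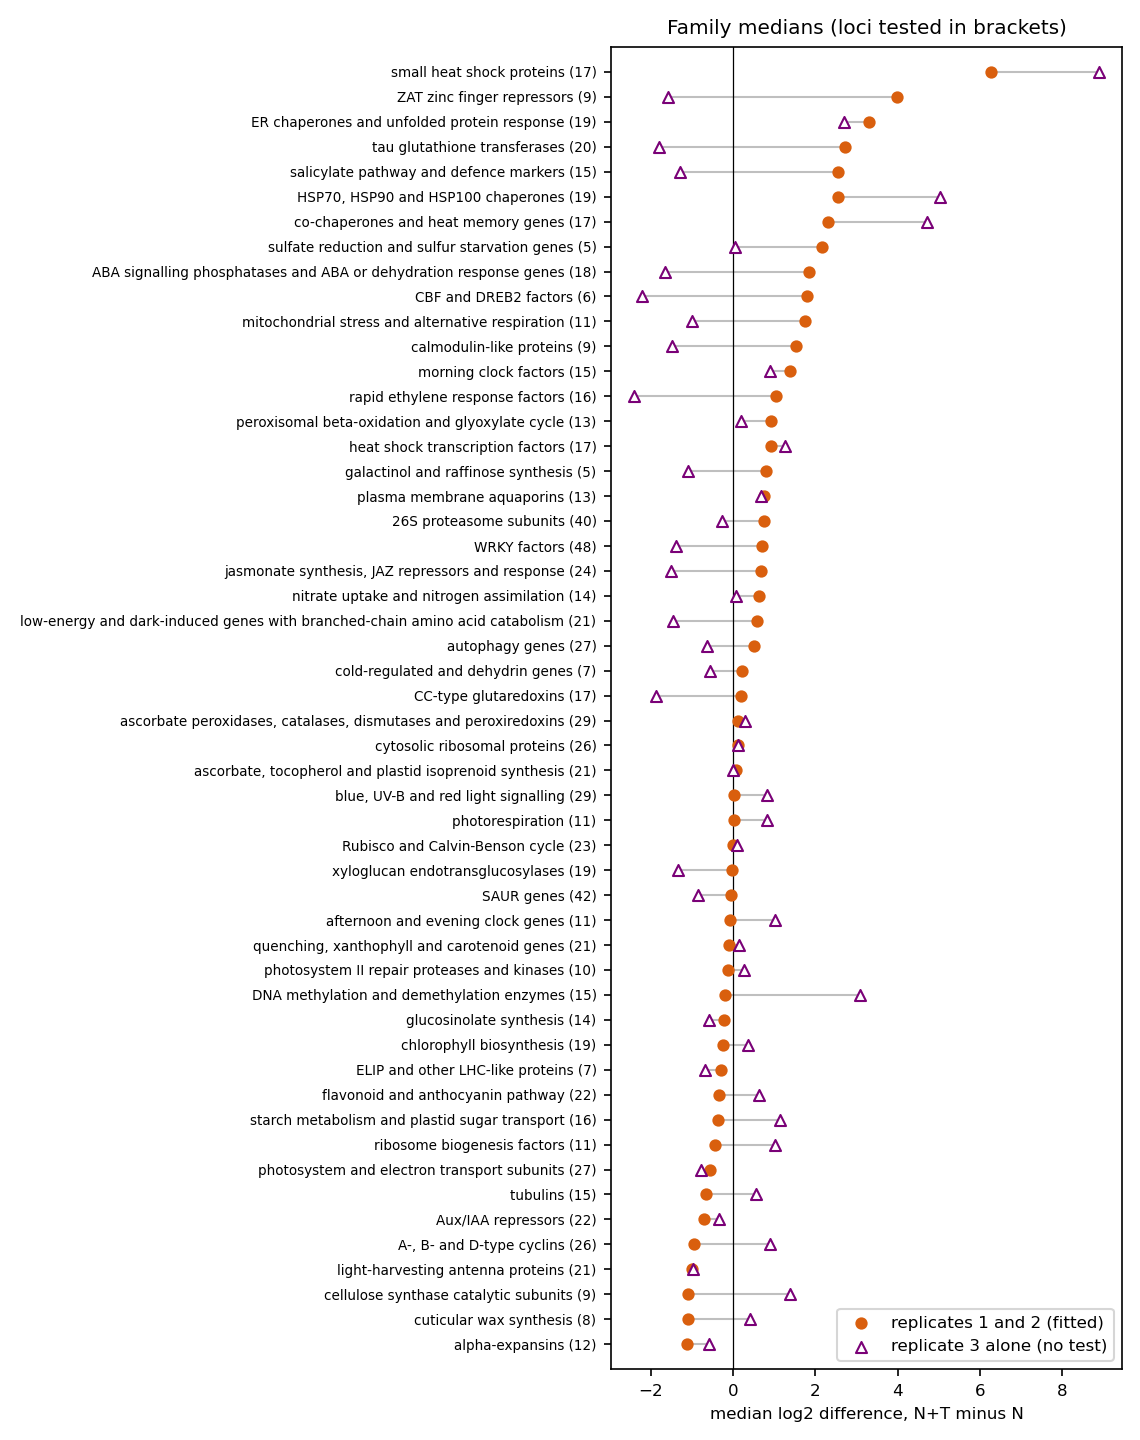
Median log2 difference between N+T and N for the 52 gene lists, as fitted from replicates 1 and 2 (orange circles) and as N+T-r3 minus N-r3 (open purple triangles), ordered by the former with the number of loci tested in brackets. Chaperone and unfolded protein response lists have both marks well above 0 and antenna genes and expansins both below, while in 29 of the 52 lists the marks lie on opposite sides of 0.

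Over the 52 lists, 29 medians had the other sign in replicate 3, and 8 had it when both replicate 3 libraries were added to the fit. The level of each list in each library shows where this arose. For the HSP70, HSP90 and HSP100 genes the median member lay 3.03, 2.44 and 3.17 log2 units above N-r1 and -r2 in the N+T libraries and at -2.28 in N-r3. For salicylate genes it lay at 2.33, 2.20 and -1.11 in the N+T libraries and at 0.29 in N-r3, N+T-r3 being the library furthest below. For cellulose synthases the values were -1.15, -1.06 and -0.59 in N+T and -1.97 in N-r3, so that all 3 triggered libraries were below N-r1 and -r2 and N-r3 was lower still. The antenna genes were at -1.11, -0.85 and -0.02 in N+T and at 1.08 in N-r3, so N+T-r3 lay at the level of N-r1 and -r2 and the negative difference in replicate 3 came from the high level in N-r3.

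**Figure D4:**
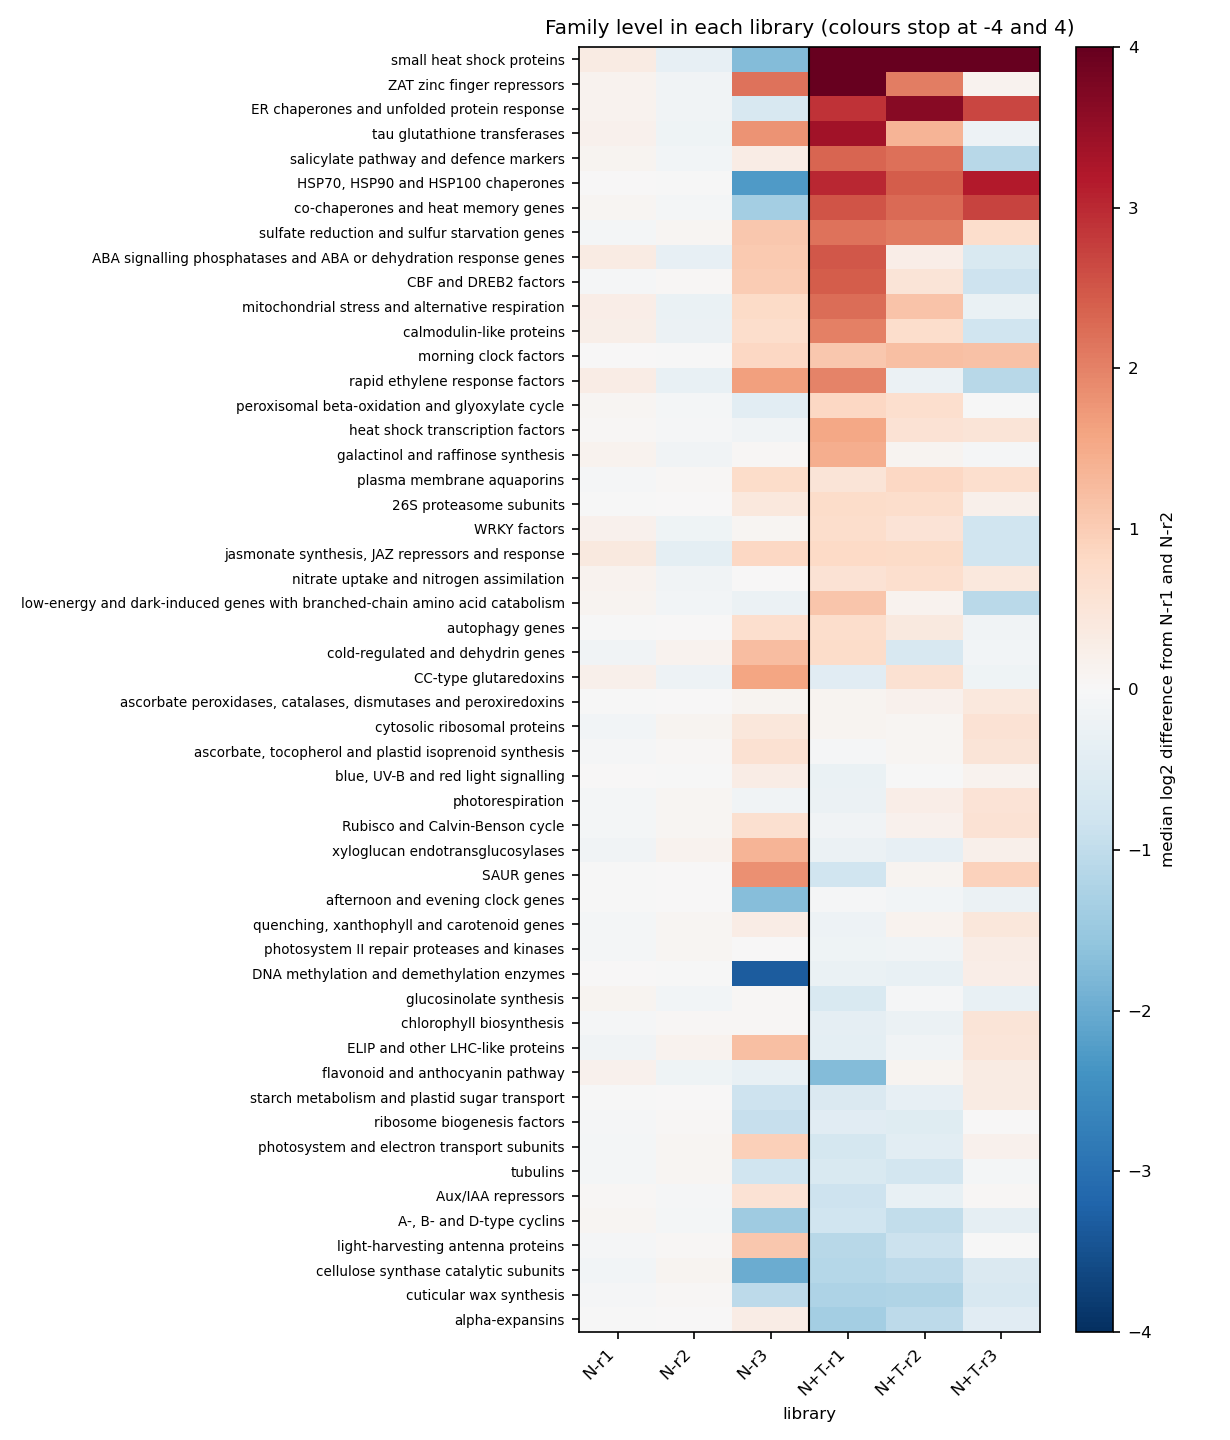
Median log2 difference of each of the 52 lists from the mean of N-r1 and -r2, by library, with red above and blue below and colours stopping at -4 and 4. The chaperone lists are red in all 3 N+T columns, the ZAT, glutathione transferase and salicylate lists in the N+T-r1 and -r2 columns, and the DNA methylation and the HSP70, HSP90 and HSP100 lists are darkest blue in the N-r3 column.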

How the data were processed

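The deposited files hold whole-number counts of reads per gene, which the authors made by trimming 75-base single-end reads, aligning them to TAIR10 with Subread 1.6.2, keeping uniquely mapping reads, and counting them by strand over Araport11 genes with featureCounts. Here 289 organelle and rRNA loci were removed, and loci above a CPM (counts scaled to library size) of 1 in at least 3 libraries were kept. Counts were normalized by TMM and fitted with the quasi-likelihood test of edgeR 4.0.16 (R 4.3.3) over 10 libraries (N and N+T replicates 1 and 2, P and P+T replicates 1 to 3), so that N and N+T share the spread of the primed groups, with Benjamini-Hochberg adjustment over 17986 loci and a threshold of 0.05. The biological coefficient of variation was 31.98%. In simulated counts for N+T against N over 17986 loci, 118 of 200 loci changed by 2 on the log2 scale were recovered, with 3 false calls. Differences in replicate 3 used log2 CPM with a prior count of 2. Alternatives were DESeq2 1.42.0, other size factors, filters and library sets, leaving out each library, and the replicate number as a block. Up to 3 called members per list and direction, ranked by fold change, the 5 most changed loci in each direction and 8 EL markers could be named, and for lists without a call the most abundant member. The gene lists and members were chosen with earlier results of these data known. Gene names, promoters and coordinates came from RefSeq (TAIR10.1), and the DNA methylation files were not used here. P-values of the main fit rest on the spread within the groups of the 10 fitted libraries, the primed ones included. They leave out the spread that N-r3 and N+T-r3 would add. Intervals from counts cover counting error only.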

Additional observations from a re-analysis of the deposited data

Results flagged for a closer look

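A single locus of 17986 (0.00556%) responded differently to triggering in naïve and in primed plants by the interaction term of the edgeR quasi-likelihood fit. AT4G15690, a CC-type glutaredoxin, rose in N+T against N (log2 fold change 1.27 ± 0.17 (SE), adjusted p = 0.00784) and fell in P+T against P (log2 fold change -1.26, adjusted p = 0.00593), and the difference of both responses was 2.54 ± 0.22 (SE) on the log2 scale (adjusted p = 0.0325). Its level was 4.91 and 4.55 CPM in N-r1 and -r2, 11.3 and 11.4 CPM in N+T-r1 and -r2, 11.6, 10.2 and 10.3 CPM in P, and 4.17, 4.55 and 4.64 CPM in P+T. The replicate 3 libraries were in the opposite order to the other naïve replicates, at 22.2 CPM in N-r3 and 5.35 CPM in N+T-r3, and the call was lost when both were included. It was also lost when either was added alone, with the replicate block and with no filter on low counts (0 loci each), whereas DESeq2 called 753 loci for the interaction.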

How the results depend on the processing

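The counts of loci called higher and lower in N+T than in N, 1392 and 1336, depended most on which libraries entered the edgeR quasi-likelihood fit. They were 572 and 524 with N replicate 3 added, 447 and 506 with N+T replicate 3 added, 355 and 362 with all 12 libraries, and 53 and 5 with the 6 naïve libraries alone. With 1 of the 4 main libraries left out they ranged from 0 to 1620 and from 1 to 1026, both lowest without N-r2 and highest without N+T-r2, and the lone remaining library of the group was then assumed to vary like the other groups. DESeq2 called 2577 higher and 1932 lower. The cause of these differences was not tested. Interaction with priming gave 1 call, 0 with either or both replicate 3 libraries, with no filter on low counts or with the replicate block, 0 to 9 with a library left out, and 753 by DESeq2. Fits with RLE size factors, legacy = FALSE, the 4 naïve libraries alone or a CPM filter over the 10 libraries kept the counts within 1.5 times.

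No pairing by replicate number was seen. Deviations from the group means correlated at -0.08, -0.34 and -0.32 between libraries with the same number, and from -0.36 to 0.45 between the others. The group means include the replicate 3 libraries that lay apart, so this check cannot exclude a pairing. With the replicate block 1569 loci were called higher and 1257 lower, and 74 of the 78 called loci named here were still called. Of these 78, 72 were called by DESeq2, 32 with all 12 libraries, 5 without N-r1, 0 without N-r2, 15 without N+T-r1 and 52 without N+T-r2. In these fits AT4G15690 alone changed sign, to -0.16 with all 12 libraries, and it was at -0.18 with the 6 naïve libraries.

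In replicate 3 alone, as N+T-r3 minus N-r3 in log2 CPM, 30 of the 78 had the other sign. Among loci called higher the values were ZAT12 -1.17, GSTU10 -2.84, VTE2 -0.49, SEP2 -1.27, PR1 -8.48, FMO1 -2.21, ALD1 -1.47, WRKY75 -5.48, PBD2 -0.77, ATG8H -1.27, LSU1 -6.76, DOX1 -5.55, DXPS1 -6.00, AT4G16260 -8.25, WRKY67 -2.69, MSRB7 -6.32, AT4G15690 -2.03, C4H -0.43, GOLS2 -1.10 and PPDK -0.77. Among loci called lower they were CHLI2 0.056, NRT2.1 0.44, CESA2 1.09, CESA5 1.38, TUA3 1.77, CYCB2;2 2.13, PUM24 3.11, WSD1 1.75, PHS2 1.37 and AT4G36770 0.91. Neither RBCS1A nor GI passed the test. The fold change of RBCS1A turned to 0.032 with N+T replicate 3 added. That of GI turned to 0.081 with N replicate 3 added, 0.080 with the 6 naïve libraries and 0.073 with all 12. At 3665503 counts N+T-r3 was the shallowest library, and a count of 0 there allows up to 0.892 CPM. FMO1, ALD1, WRKY67, NRT2.1 and AT4G36770 were near or below that level in both replicate 3 libraries, so the sign of their differences there is uncertain.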
